A study of Mus musculus with 8 samples.

Results

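The miR-199 and miR-214 miRNAs were followed in 8 small RNA libraries of isolated mouse cardiomyocytes, as all rows of the count files whose name is mmu-miR-199a-5p, mmu-miR-199a-3p, mmu-miR-199b-5p, mmu-miR-199b-3p, mmu-miR-214-3p or mmu-miR-214-5p. All 6 names were found among the 697 mature miRNAs of the files. They stand for 5 separate mature forms, because the 3p arms of miR-199a and miR-199b are the same molecule. The libraries come from 4 sham-operated male mice and 4 male mice with transverse aortic constriction (TAC), a surgical narrowing of the aorta that overloads the left ventricle. The mice were 2 months old at surgery, and their hearts were taken apart by Langendorff perfusion at 14 weeks after it, although the methods in 1 place give 14 weeks as their age. Each library was made from part of the cardiomyocytes of 1 heart. The genotype and strain are not given in the sources used here, and neither is the fraction of other cells left among the cardiomyocytes. The study does report very low mRNA levels of fibroblast markers. From these it infers that much of the nonmuscle cells, fibroblasts in particular, had been removed.

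A miRNA is a short RNA that guides Argonaute proteins to messenger RNAs, mostly through its seed (bases 2 to 8), and each hairpin precursor can give a mature form from its 5p arm and one from its 3p arm. Dnm3os is a long noncoding RNA read from the strand opposite to the Dynamin-3 gene Dnm3, and it carries the hairpins of miR-199a-2 and miR-214 on 1 transcript. Dnm3os, miR-199 and miR-214 are best known from fibroblasts and other mesenchymal cells, and miR-199a and miR-214 have been studied in the overloaded heart, miR-199a-5p as a regulator of the hypoxia factor Hif1a and miR-214 as a regulator of calcium handling.

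The mature sequences below are shown because the seeds decide which members can act alike and because the files' names hide that 3p forms coincide. They were taken from RefSeq (GRCm38.p6), which held 5 of the 6 names, and the seed is in capitals.
mmu-miR-199a-5p: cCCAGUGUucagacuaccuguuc
mmu-miR-199a-3p: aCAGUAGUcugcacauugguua
mmu-miR-199b-3p: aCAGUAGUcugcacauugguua
mmu-miR-214-3p: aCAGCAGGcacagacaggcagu
mmu-miR-214-5p: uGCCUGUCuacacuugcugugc
The sixth name is mmu-miR-199b-5p. The letters of both 3p entries of miR-199 are identical, and the 4 distinct seeds printed here differ from each other. In the miR-199b hairpin, the stretch closest to miR-199a-5p differs from it by 1 substitution, C10U (the base of miR-199a-5p first, positions counted from its 5′ end), while both miR-199a hairpins hold miR-199a-5p without a mismatch. This substitution lies outside bases 2 to 8. The seed of miR-214-3p is shared with mmu-miR-761, which is not among the miRNAs of the files.

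Not every member belongs to the Dynamin-3 antisense transcript (coordinates in GRCm38.p6, gene models of GENCODE vM21). The hairpin Mir199a-2 (chr1:162217814-162217923, plus strand) and the hairpin Mir214 (chr1:162223368-162223477, plus strand) lie 5444 bases apart, both overlap exons of Dnm3os (chr1:162217623-162225550, plus strand), and neither overlaps an exon of Dnm3 (chr1:161982453-162478034, minus strand). Mir199a-1 (chr9:21496495-21496564, minus strand) lies within Dnm2 on the opposite strand, and Mir199b (chr2:32318460-32318569, plus strand) lies within Dnm1 on the opposite strand, both outside the exons of these genes. Mature miR-199a-5p can therefore come from hairpins on chromosomes 1 and 9, the shared 3p form from hairpins on chromosomes 1, 2 and 9, miR-199b-5p from chromosome 2 alone and both arms of miR-214 from chromosome 1 alone.

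Because miR-199a-2 and miR-214 share a transcript, the RefSeq promoter of Dnm3os (250 bases before to 50 after its start) was searched for the CArG box, the element read by serum response factor, a regulator of muscle and mesenchymal genes. It holds 1 CArG box, 33 to 24 bases before the start, shown in capitals in the 30 bases at chr1:162217580-162217609 of the plus strand.
Dnm3os promoter: tgacatcatcCCATATATGGactctccagc
Of 32851 promoters of the same length, 535 (1.63%) hold this box, a pattern that reads the same on both strands. The E-box CANNTG, also the same on both strands, occurs 3 times in the Dnm3os promoter and at least once in 72.3% of all promoters. A match in letters is a description and not a binding site.

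The libraries hold between 4005668 and 5392576 miRNA counts in sham and between 5507169 and 7798943 in TAC. The cardiomyocyte markers miR-1a-3p, miR-133a-3p, miR-133a-5p, miR-208a-3p and miR-499-5p summed to 161859 to 200737 CPM (the count of a miRNA scaled to 1000000 counts of the library's miRNA total) in sham and 195369 to 246803 CPM in TAC, so the markers of the labelled cell type were high in all 8 libraries. Markers of other cells were present too. The mural markers (both arms of miR-143 and miR-145a, of smooth muscle and pericytes) summed to 38116 to 45041 CPM in sham and 35321 to 39179 CPM in TAC. The endothelial markers (both arms of miR-126a) summed to 49248 to 72051 CPM in sham and to 29274 to 34557 CPM in TAC, lower in every TAC library. The leukocyte markers (4 of 4 detected) lay at 1195 to 2360 and 936.8 to 1332 CPM, and the erythroid markers (3 of 3) at 417.7 to 1503 and 43.76 to 550.0 CPM. The epithelial markers (5 of 5) lay at 242.2 to 397.6 CPM in sham and 221.4 to 1399 CPM in TAC, and TAC library 4 holds that highest value, with the next library at 398 CPM. No marker was at 0 in all libraries. In such bulk samples fewer cells of a type and less RNA per cell cannot be told apart.

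The miR-199a forms were the abundant members, and miR-199b-5p and miR-214 were minor. By summed count, miR-199a-5p ranked 35th of the 697 miRNAs, miR-199a-3p 49th, miR-199b-5p 133rd, miR-214-3p 160th and miR-214-5p 320th. In sham, miR-199a-5p stood at 4078, 6276, 5070 and 5214 CPM in libraries 1 to 4, and in TAC at 4102, 2729, 4261 and 5298 CPM. The shared 3p form stood at 1885, 1942, 1937 and 1457 CPM in sham and at 1280, 1021, 1522 and 1977 CPM in TAC. In both forms the groups overlapped, and within TAC library 2 was lowest and library 4 highest. The rows of miR-199a-3p and miR-199b-3p differed by 0 to 3 counts in each library, so the same tags appear to be listed under both names, and they are given here once, as miR-199a-3p. Each library holds that form's tags once per name in its total.

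The Dnm3os partner miR-214-3p, the main arm of its hairpin, stood at 64.6, 65.5, 75.6 and 47.7 CPM in sham and at 45.8, 36.7, 54.6 and 69.9 CPM in TAC. Its order of libraries within TAC was that of both miR-199a-3p and miR-199a-5p, lowest in library 2 and highest in library 4. In sham, miR-214-3p and miR-199a-3p were lowest in library 4, and miR-199a-5p was lowest in library 1. The opposite arm, miR-214-5p, was counted only 15 to 31 times per sham library and 22 to 35 times per TAC library, with a counting error of 16.9% to 25.8%. It reached 5.02% to 8.90% of the count of miR-214-3p in sham and 6.93% to 8.73% in TAC.

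The member set apart was miR-199b-5p, from the Dnm1 locus. It was counted 813, 752, 779 and 513 times in sham and 363, 372, 508 and 400 times in TAC, although the TAC libraries are deeper. In CPM these are 176, 139, 159 and 128 in sham and 65.9, 47.7, 80.1 and 55.4 in TAC. The groups did not overlap: the highest TAC value was well under the lowest sham value. The means were 150 ± 21.0 and 62.3 ± 14.0 CPM (SD, n = 4 per group), and the difference of mean log2 values gave a fold of 0.409. The two-sided exact permutation p was 0.0286, the minimum for groups of 4 and 4. Of the 223 miRNAs with a mean above 100 counts, 27.4% had all their TAC values under all their sham values on this scale. The other 4 forms had mean log2 differences in CPM between -0.36 and -0.17, with overlapping groups and exact permutation p between 0.257 and 0.514.

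**Figure D1:**
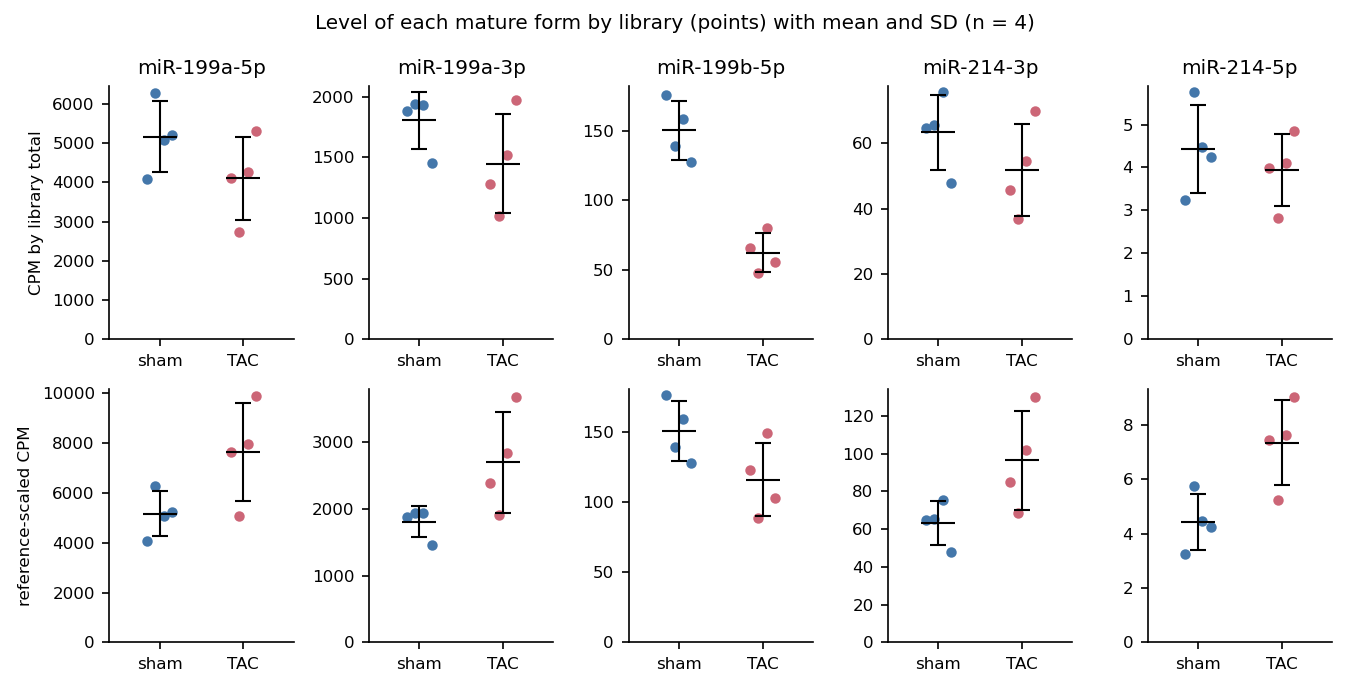
Levels of the 5 mature forms in each library (points), with the mean and SD of 4 libraries, as CPM by library total (upper row) and as CPM with the TAC libraries divided by the reference factor (lower row). In the upper row miR-199b-5p runs from 128 to 176 CPM in sham and from 47.7 to 80.1 CPM in TAC, the only form whose groups do not overlap, and in the lower row all 5 forms overlap.

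The study used miR-19b-3p and miR-126a-3p as its references, which its methods describe as unaltered by QPCR (measurements not analysed here), and this scaling sets the sign of what is read for most members. The TAC libraries are divided by a factor of 0.537, which moves every log2 difference up by 0.90. The 223 tested miRNAs then had a median log2 fold change of 0.61, against -0.08 with TMM and -0.29 with library totals. miR-126a-3p is itself 1 of the endothelial markers whose sum was lower in TAC by library totals. How far the endothelial content of the libraries enters the factor was not tested.

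In reference-scaled CPM, miR-199a-5p had a mean of 5159 ± 899 in sham and 7633 ± 1965 in TAC, miR-199a-3p 1805 ± 233 and 2701 ± 757, and miR-214-3p 63.3 ± 11.6 and 96.4 ± 26.4 (SD, n = 4 each). Taken from the difference of mean log2 values, the folds were 1.46, 1.46 and 1.50. Each had p = 0.0857 in an exact permutation test that recomputed the factor for every arrangement. The groups overlapped through TAC library 2, at 5084 for miR-199a-5p, 1903 for miR-199a-3p and 68.3 for miR-214-3p. miR-199b-5p went the other way, from 150 ± 21.0 to 116 ± 26.2, with a fold of 0.762 from the mean log2 values (exact permutation p = 0.257). miR-214-5p had 4.43 ± 1.03 and 7.34 ± 1.56 (exact permutation p = 0.0286), with overlapping groups and few counts. Of the 223 tested miRNAs, 54.7% had all their TAC values above all their sham values on this scale, and no member did.

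edgeR's quasi-likelihood test over the 223 miRNAs, with Benjamini-Hochberg adjustment, called a miRNA changed at an adjusted p below 0.05 with a fold above 1.7. With the reference scaling it called 36.8% of the miRNAs higher and 0.897% lower, and no member in either direction. The log2 fold change was 0.57 ± 0.20 (SE) for miR-199a-5p, adjusted p = 0.0326 by edgeR. It was 0.58 ± 0.20 for miR-199a-3p (adjusted p = 0.0271) and 0.60 ± 0.23 for miR-214-3p (adjusted p = 0.0398). These 3 passed the p threshold but not the fold, at 1.48, 1.50 and 1.52, and leaving out 1 library moved each of them past the p threshold of 0.05, to at most 0.121, 0.0829 and 0.102. Of all tested miRNAs, 63.7% passed that p threshold upward. miR-199b-5p had -0.38 ± 0.19 (adjusted p = 0.105 by edgeR). miR-214-5p, below the count minimum, had 0.72 ± 0.33 in the fit without it (adjusted p = 0.131).

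With TMM the same test gave -0.13, -0.11 and -0.08 for miR-199a-5p, miR-199a-3p and miR-214-3p, and with library totals -0.33, -0.32 and -0.29, with adjusted p between 0.240 and 0.796. The sign of these 3 members therefore turned with the scaling. For miR-199b-5p it did not turn. The log2 fold change was -1.07 ± 0.18 with TMM, with an edgeR adjusted p of 0.00740. Library totals gave -1.27 ± 0.19, with an edgeR adjusted p of 0.00224, and miR-199b-5p was called lower in both fits. TMM called 4.48% of the tested miRNAs lower and library totals 10.3%. Set against the median of all tested miRNAs, miR-199b-5p was lower by a log2 difference of -0.98 with the reference, -0.99 with TMM and -0.98 with library totals, and miR-199a-5p by -0.04, -0.05 and -0.04. The reference scaling and library totals differ only by 1 factor on all TAC libraries. Their agreement relative to the median therefore follows from the scaling and is not separate evidence. Ordered from the lowest log2 fold change, miR-199b-5p was 6th of 223 with the reference, and miR-199a-5p, miR-199a-3p and miR-214-3p were 97th, 103rd and 111th, near the middle. With each library left out in turn, the adjusted p of miR-199b-5p stayed between 0.0125 and 0.0332 with TMM and between 0.00459 and 0.0121 with library totals.

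**Figure D2:**
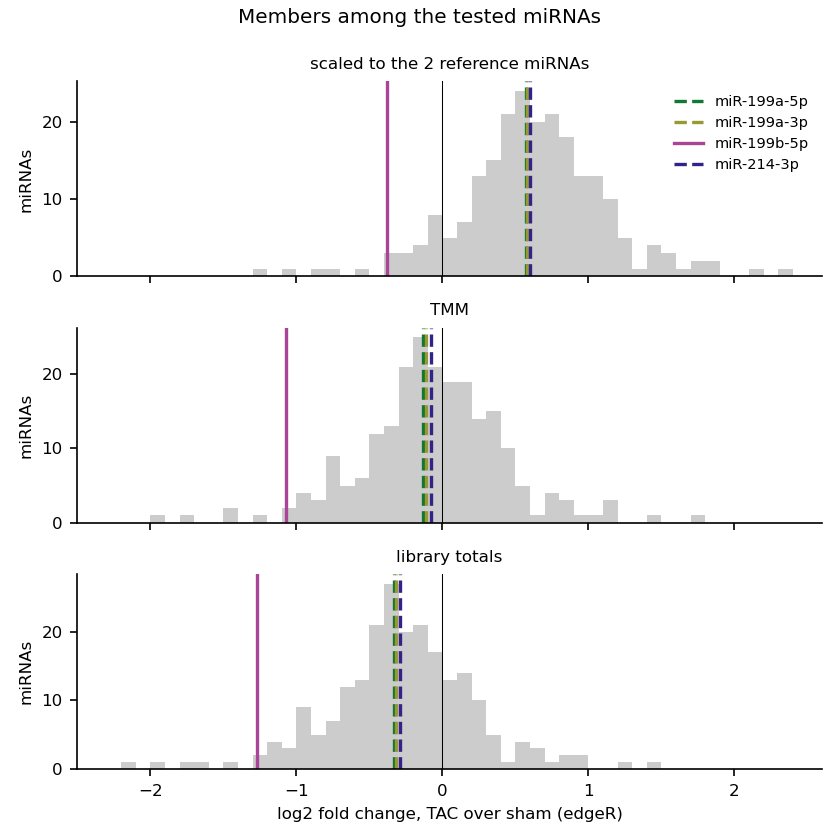
Distribution of the edgeR log2 fold change of TAC over sham over 223 miRNAs (grey bars, number of miRNAs per 0.1 of log2) under 3 scalings, with 4 members as lines. miR-199a-5p, miR-199a-3p and miR-214-3p (dashed) lie in the middle of each distribution and cross 0 with the scaling, from 0.57 to 0.60 with the reference to -0.33 to -0.29 with library totals. miR-199b-5p (solid) lies in the left tail in each panel, at -0.38, -1.07 and -1.27. The panels of the reference and of library totals differ almost only by a shift, because of how these scalings are made.

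Ratios of counts within a library need no scaling, and they separate miR-199b-5p from the rest of the family. Of the summed counts of both 5p forms of miR-199, miR-199b-5p made up 4.13%, 2.17%, 3.04% and 2.40% in sham libraries 1 to 4 and 1.58%, 1.72%, 1.85% and 1.03% in the TAC libraries. The means were 2.93% ± 0.877 and 1.54% ± 0.357 (SD, n = 4 each). The highest TAC value (95% Wilson interval 1.69% to 2.01%) lay just below the lowest sham value (2.03% to 2.33%). These intervals cover counting error only. Sham libraries differed among themselves by more than their counting error, from 2.17% in library 2 to 4.13% in library 1.

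**Figure D3:**
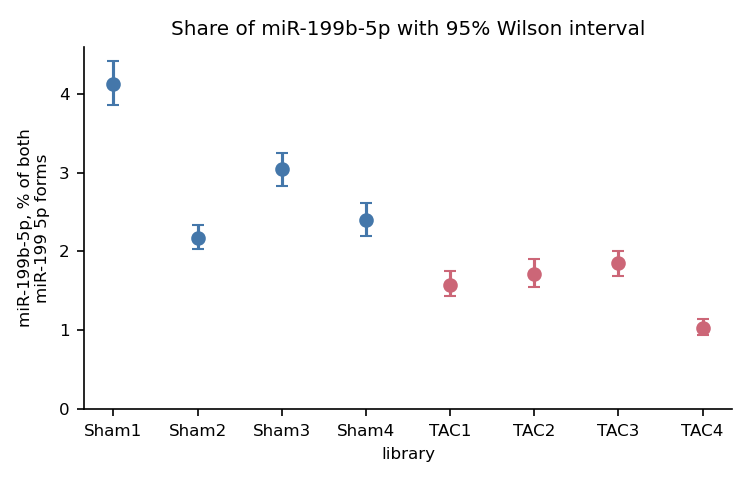
Share of miR-199b-5p among the counts of miR-199a-5p and miR-199b-5p in each library, with the 95% Wilson interval of the counts. The 4 TAC libraries run from 1.03% to 1.85% and the 4 sham libraries from 2.17% to 4.13%, without overlap.

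On the log2 scale, the ratio of miR-199b-5p to miR-199a-5p averaged -5.09 ± 0.43 over the sham libraries and -6.03 ± 0.38 over the TAC libraries (SD, n = 4 per group). The difference was -0.93, or 1.91-fold lower in TAC. Against miR-199a-3p the difference was -0.94, from -3.59 ± 0.16 to -4.53 ± 0.43. Against miR-214-3p it was -0.98, from 1.26 ± 0.20 to 0.28 ± 0.42, so that miR-199b-5p was more abundant than miR-214-3p in every sham library and less abundant in TAC library 4 alone, with a log2 ratio of -0.34. In each of these 3 ratios all TAC values were under all sham values, and each had p = 0.0286 in the two-sided exact permutation test. Adjusted over the 10 ratios compared (Benjamini-Hochberg), this became p = 0.0952 by the same exact permutation test, which does not pass 0.05. The 3 ratios share miR-199b-5p and are not separate evidence. Without TAC library 4, the library with the high epithelial markers, the ratio to miR-199a-5p still differed by -0.75, with an exact permutation p of 0.0571, and the groups still did not overlap.

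Non-overlapping ratios are common in these libraries, since 21.7% of all pairs of tested miRNAs had one. For miR-199b-5p the share was higher. Its ratio had all TAC values under all sham values against 146 of the 218 tested miRNAs outside the family (67.0%), and higher against 0 of 218. The 21.7% averages over all pairs, and the share for other miRNAs with a similarly low fold change was not computed. The 67.0% rests on the same counts as the low level of miR-199b-5p and is not separate evidence. For miR-199a-5p the groups did not overlap against 5.50% of these miRNAs in either direction, for miR-199a-3p against 5.96% and for miR-214-3p against 3.67%. An edgeR fit scaled to miR-199a-5p, added after the data had been examined, gave miR-199b-5p a log2 fold change of -0.95 ± 0.35 relative to miR-199a-5p (unadjusted p = 0.00703, adjusted p = 0.0908 over 222 miRNAs). It is not called there, and 1.35% of the miRNAs were called lower in that fit.

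The shared 3p form of miR-199, given as miR-199a-3p, and miR-214-3p kept close to each other. That form can also come from Mir199a-1 and Mir199b, so the ratio is not one between products of Dnm3os alone. The log2 ratio of miR-214-3p to miR-199a-3p was -4.87, -4.89, -4.68 and -4.93 in sham and -4.81, -4.80, -4.80 and -4.82 in TAC. The means were -4.84 ± 0.11 and -4.81 ± 0.01 (SD, n = 4 each), a difference of 0.04 (exact permutation p = 0.571), and without sham library 3 it was 0.09 (exact permutation p = 0.0286). The spread within groups was 0.0799 on the log2 scale, against 0.0844 that counting error alone gives at these counts. Within groups, no spread beyond counting error was therefore detectable at this depth. The TAC SD of 0.01 lies far under that counting error and cannot be read as a tighter link in TAC. No tested miRNA outside the family had a steadier ratio to miR-199a-3p than miR-214-3p had, with an SD of 0.0763 over the 8 libraries.

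The arms of miR-199 were less tightly bound. The ratio of miR-199a-3p to miR-199a-5p ran from 27.9% to 46.2% in sham and from 31.2% to 37.4% in TAC. On the log2 scale its means were -1.51 ± 0.32 and -1.50 ± 0.12 (SD, n = 4 each), a difference of 0.01 (exact permutation p = 0.971). The spread within groups, 0.245, was 13.6 times the counting error. Still, 3 of the 218 tested miRNAs outside the family had a steadier ratio to miR-199a-5p over the 8 libraries than miR-199a-3p had. The ratio of miR-214-3p to miR-199a-5p also did not differ by more than its spread, with a difference of 0.04 (exact permutation p = 0.83). That spread within groups was 0.287, or 3.44 times the counting error. Of the 218 tested miRNAs outside the family, 12 had a steadier ratio to miR-199a-5p than miR-214-3p had. Mir199a-2 and Mir214 share a transcript, and mature miR-199a-5p can also come from Mir199a-1 on chromosome 9. The shared 3p form, with its steadier ratio to miR-214-3p, can come from Mir199a-1 too, and from Mir199b on chromosome 2. The cause of this spread was not tested. The ratio of miR-214-5p to miR-214-3p differed by 0.15 (exact permutation p = 0.514), with a spread within groups of 0.309 against a counting error of 0.318.

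Against markers of cell types, miR-199a-5p had a log2 ratio to the summed mural markers of -3.01 ± 0.24 in sham and -3.25 ± 0.34 in TAC, a difference of -0.24 (exact permutation p = 0.343). To the cardiomyocyte markers the difference was -0.67 (exact permutation p = 0.0857) and to the endothelial markers it was 0.50 (exact permutation p = 0.114). In these 3 ratios the groups overlapped. For miR-199b-5p, ratios added after its values had been seen are given without a test. Its log2 ratio to the endothelial markers was -8.13, -8.88, -8.83 and -8.70 in sham and -9.00, -9.47, -8.75 and -9.05 in TAC, which overlap. To the mural markers it was -8.10 ± 0.24 in sham and -9.27 ± 0.29 in TAC, which do not. Against single tested miRNAs outside the family, the ratio of miR-199b-5p was without overlap in 67.0%, so this is the more common outcome. Its ratios to the cardiomyocyte, leukocyte, erythroid and epithelial markers were not computed. The part of the endothelial content in the lower share of miR-199b-5p was not tested.

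**Figure D4:**
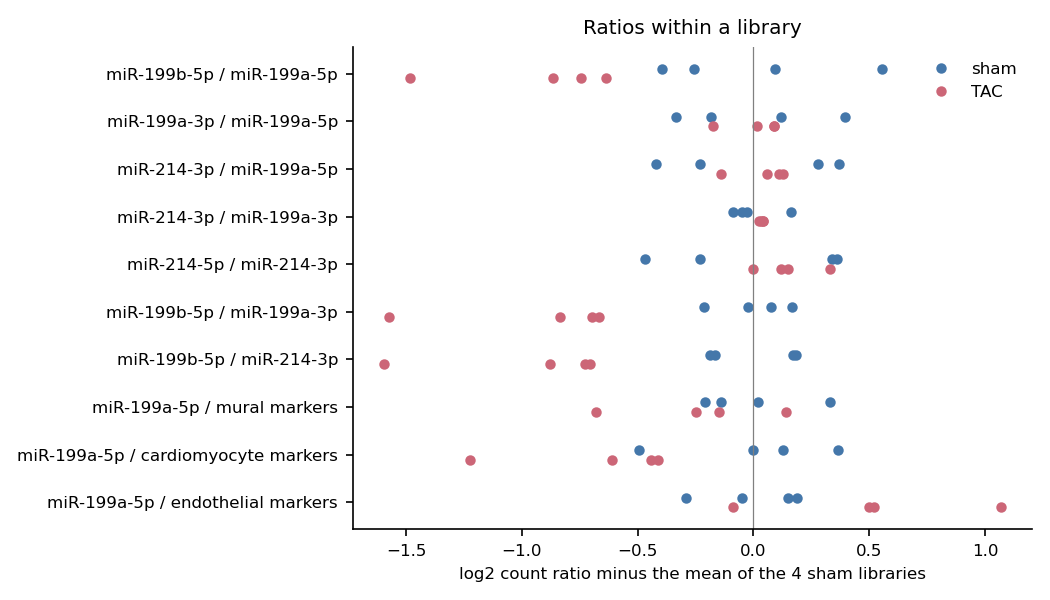
The 10 log2 count ratios within a library, each shifted so that the 4 sham libraries average 0 (points, 1 per library, sham above TAC in each row). The 3 rows with miR-199b-5p are separated by group, with mean differences of -0.93 to -0.98. The TAC values of miR-214-3p over miR-199a-3p lie almost on each other, closer than counting error alone gives.

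The miRNAs outside the family whose counts ran most parallel to each member were found by the SD of the log2 count ratio over the 8 libraries, among 218 tested miRNAs. Closest to miR-199a-3p was miR-195a-5p (SD 0.0928), a member of the miR-15 family that restrains the cell cycle, then miR-574-3p (0.201) and miR-100-5p (0.211). Closest to miR-214-3p was again miR-195a-5p (0.113), then miR-574-3p (0.184) and miR-25-3p (0.219). Closest to miR-199a-5p were miR-374b-5p (0.182), miR-125a-5p (0.183) and miR-26a-5p (0.214), so its list shared no name with that of its own 3p arm. Members were left out of these lists. The 3p arm itself had an SD of 0.227 to miR-199a-5p, and 3 of the 218 miRNAs had a smaller one. The median SD over the 218 miRNAs was 0.454 for miR-199a-5p, 0.445 for miR-199a-3p and 0.453 for miR-214-3p. These are descriptions over 8 libraries that share their depth and cell content.

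Closest to miR-199b-5p were miR-362-5p (SD 0.274), miR-503-5p (0.278) and miR-126a-5p (0.286), the last an endothelial marker, against a median of 0.678. miR-362-5p stood at 77.6 to 121 CPM in sham and 39.3 to 43.3 CPM in TAC, miR-503-5p at 26.0 to 41.0 and 10.9 to 17.3 CPM, and miR-126a-5p at 16874 to 23488 and 8596 to 11408 CPM. They were chosen for running parallel to miR-199b-5p over these libraries, so their lower level in TAC follows from the choice and is given without a test. By the same SD, 187 of the 218 miRNAs ran closer to miR-199a-5p than miR-199b-5p did. Seen from miR-199b-5p, the SD was 0.623 to miR-199a-5p, 0.585 to miR-199a-3p and 0.605 to miR-214-3p, each under its median of 0.678. Of the 218 miRNAs, 82 ran closer to miR-199b-5p than miR-214-3p did. miR-199b-5p was therefore no farther from these members than from most other miRNAs.

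Lists of related miRNAs give the setting. Of the 16 tested miRNAs of 18 known to change in the loaded heart, edgeR with the reference scaling called 8 higher and none lower (0 of 16), where it called 36.8% of all tested miRNAs higher. The median log2 fold change was 0.71 against 0.61 over all tested miRNAs. The largest was miR-208b-3p, encoded in the slow myosin gene, at 1.71 ± 0.37 (SE, adjusted p = 0.00327). miR-222-3p of the vascular miR-221/222 pair had 1.24 ± 0.22 (adjusted p = 0.00131) and miR-21a-5p, known from cardiac fibrosis, 0.60 ± 0.27 (adjusted p = 0.0723). miR-1a-3p (1.44), miR-29b-3p (0.92) and miR-133a-3p (0.79) were also called higher. The list was not sorted by the direction of the known change, so its calls do not show whether that direction was met. Of 12 miRNAs known for high levels in fibroblasts and other mesenchymal cells, 5 were called higher and none lower (0 of 12), a share near the 36.8% of all tested miRNAs, and the median was 0.75. This list holds the 4 mural markers and shares 1 miRNA, miR-21a-5p, with the list of the loaded heart. Among them miR-143-3p had 0.79 ± 0.09 (adjusted p = 1.27e-04) and miR-125b-5p 1.02 ± 0.09 (adjusted p = 4.05e-05), larger values than those of the miR-199a and miR-214 forms, while miR-145a-5p had 0.47 ± 0.17 (adjusted p = 0.0373), a smaller one. The list ran from 0.30 to 1.06. With TMM no miRNA of either list was called, in a fit that called 1.35% of all tested miRNAs higher and 4.48% lower, and the medians were 0.03 and 0.06 against -0.08 over all tested miRNAs.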

How the data were processed

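The authors deposited, for each of 8 small RNA libraries (4 sham, 4 TAC), whole-number tag counts per mature miRNA without normalization. The submitters' processing notes name the mm10 build and StringTie 1.3.1; the aligner, the miRNA reference and the handling of tags that fit several miRNAs are not given in the sources used here. Counting a tag under both 3p names of miR-199 adds it to the library total once per name.

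Groups came from the sample labels. CPM used the miRNA total of a library. Reference-scaled CPM divided the TAC libraries by 0.537: for each of miR-19b-3p and miR-126a-3p the mean CPM of TAC was divided by that of sham, and the geometric mean of both ratios was taken. The main test was edgeR 4.0.16 (R 4.3.3, quasi-likelihood, group as the only term, library sizes times that factor) on the 223 miRNAs with a mean above 100 counts, calling those with a fold above 1.7 and a Benjamini-Hochberg adjusted p below 0.05. DESeq2 1.42.0, other scalings, other minimums, a replicate block and each library left out were alternatives. Standard errors were derived from edgeR's F, as the estimate divided by the square root of F. Exact permutation tests used all 70 arrangements of 8 libraries, two-sided, on differences of mean log2 values. Python 3.11.15 made the other values. The edgeR step was tested on simulated data.

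Members and lists were chosen with earlier results of these data known. Named miRNAs are the members, the 2 references, the listed and marker miRNAs, miRNAs with a member's seed, and the 3 miRNAs closest to each tested form. Sham and TAC libraries share the numbers 1 to 4, and the study speaks of pairs of mice. Deviations of same-numbered libraries from their group means correlated at 0.17, -0.37, 0.31 and -0.22, so the numbers were not taken as pairs. Separate mice gave the libraries, and p-values rest on 4 libraries a group.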

Additional observations from a re-analysis of the deposited data

Results flagged for a closer look

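In sham library 4, miR-199a-3p stood at 1457 CPM by library total, apart from the other 3 sham libraries at 1885 to 1942 CPM by a gap larger than Dixon's 95% critical value for 4 samples. It was the only one among 30 groups of 4 values looked at (5 forms and 10 ratios in each group of libraries), and chance flags about 1 group in 20. miR-214-3p was lowest in the same library, at 47.7 CPM, and miR-199a-5p was not, at 5214 CPM. Without that library, the reference-scaled edgeR adjusted p of miR-199a-3p was above 0.05.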

How the results depend on the processing

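The log2 fold changes of miR-199a-5p, miR-199a-3p and miR-214-3p turned from 0.57, 0.58 and 0.60 with the reference scaling to -0.13, -0.11 and -0.08 with TMM, to -0.33, -0.32 and -0.29 with library totals and to -0.07, -0.05 and -0.02 with DESeq2's own size factors. With miR-126a-3p alone as reference they were 0.46, 0.48 and 0.50, with adjusted p above 0.05. With miR-19b-3p alone they were larger, at 0.67, 0.68 and 0.71, with edgeR adjusted p of 0.0138, 0.0120 and 0.0181. Using 1 reference factor per library gave adjusted p above 0.05 for miR-199a-3p (0.53) and miR-214-3p (0.56). miR-214-3p (0.60) also had an adjusted p above 0.05 without a count filter and at a mean above 10 counts. With the replicate block, which takes libraries of the same number as paired, they were 0.55, 0.55 and 0.58 with adjusted p of 0.0724, 0.0741 and 0.0881, and -0.14, -0.14 and -0.11 with TMM. The adjusted p of miR-199b-5p fell under 0.05 in the edgeR fits with TMM (-1.07), library totals (-1.27) and the replicate block with TMM (-1.08), and in the DESeq2 fit with its own size factors (-1.02). The log2 ratios of miR-199b-5p to miR-199a-5p, miR-199a-3p and miR-214-3p stayed at -0.93, -0.94 and -0.98 in the replicate block of sign flips, whose smallest p is 0.125. miR-214-5p turned to -0.17 without a filter and with library totals, and its share to 0.06 when the total left out the 10 most abundant miRNAs. The list medians turned to -0.19 (heart stress) and -0.15 (mesenchymal) with library totals.

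With each library left out in turn and the reference scaling, miR-199a-5p ranged from 0.47 to 0.69, with adjusted p up to 0.121 and above 0.05 without sham library 3 or TAC library 1, 3 or 4. miR-199a-3p ranged from 0.45 to 0.72 (above 0.05 without sham library 2, 3 or 4 or TAC library 3). miR-214-3p ranged from 0.48 to 0.73 (above 0.05 without sham library 2, 3 or 4 or TAC library 3 or 4). miR-199b-5p ranged from -0.54 to -0.18 and was under 0.05 only without TAC library 3. In reference-scaled CPM, miR-199a-5p (0.46 to 0.69) had an exact permutation p under 0.05 only without TAC library 2, and miR-214-5p (0.66 to 0.85) lost it without any 1 sham library. The log2 ratio of miR-199b-5p to miR-199a-5p ranged from -1.07 to -0.75, with an exact permutation p of 0.0571 without TAC library 4 and under 0.05 without any other. Ratios without a difference changed sign or stayed near 0: miR-199a-3p to miR-199a-5p (-0.10 to 0.14), miR-214-3p to miR-199a-5p (-0.10 to 0.17), miR-214-3p to miR-199a-3p (0.00 to 0.09, under 0.05 without sham library 3) and miR-214-5p to miR-214-3p (-0.01 to 0.27). The ratio of miR-199a-5p to cardiomyocyte markers (-0.84 to -0.49) passed 0.05 without sham library 1, and that to endothelial markers (0.31 to 0.70) without TAC library 2. In the fit scaled to miR-199a-5p, miR-199a-3p ranged from -0.12 to 0.13 and miR-214-3p from -0.12 to 0.14. The cause of these changes was not tested. Of all 310 alternative values, 236 kept their direction and their side of the threshold. miR-214-5p is limited by depth, with a mean of 23.75 counts.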
